A study of Homo sapiens with 8 samples.

Results

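The respiratory chain and ATP synthase were followed through 104 protein-coding genes of the 78899 in the count table: 91 nuclear genes and the 13 protein genes of the mitochondrial chromosome. They were chosen by symbol. Nuclear genes began with NDUFA, NDUFB, NDUFC, NDUFS or NDUFV, SDHA to SDHD, UQCR, COX4 to COX8, ATP5F, ATP5M or ATP5P, and CYC1 and CYCS were added. Of 299 matching symbols, 14 assembly factors, 175 pseudogenes and 6 other entries were dropped. The symbols and the annotated gene type alone set the membership. The nuclear genes comprised 38 of complex I, 4 of complex II, 10 of complex III, 19 of complex IV and 19 of complex V, plus cytochrome c. The mitochondrial ones comprised 7 of complex I, 1 of complex III, 3 of complex IV and 2 of complex V. NDUFA4 and its relative NDUFA4L2 were placed with complex IV, where NDUFA4 is a subunit despite its name.

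Bulk RNA sequencing compared microglia, the resident macrophages of the brain, grown alone with microglia grown in a tri-culture. All cells came from H1, an established human embryonic stem cell line (some label fields call them iPSC-derived), carried GFP and were collected by cell sorting 2 weeks after plating. Mono-cultures (4 libraries) were given IL-34 at 100 ng/mL and M-CSF at 10 ng/mL, both ligands of the CSF1 receptor, 3 times per week, and tri-cultures (4 libraries) received fresh medium as often but no added cytokine. Co-culture and cytokine supply therefore changed together and cannot be told apart, and the labels used here do not say which partner cells were added. A single line was used. Every one of the 4 batches gave 1 library per group, so libraries are numbered by batch below.

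Electrons from NADH and succinate enter the chain at complexes I and II and pass through ubiquinone, complex III, cytochrome c and complex IV to oxygen. Complexes I, III and IV pump protons, and complex V, the ATP synthase, uses the gradient to make ATP. Complexes I, III, IV and V are built from the products of both genomes, while complex II and cytochrome c are wholly nuclear encoded. The mitochondrial genes are transcribed as long polycistronic RNAs that are cleaved at the tRNAs between them, so their steady-state levels depend on processing and stability as well as on transcription.

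Library totals ran from 17037481 to 33363972 counts. The summed level of 12 microglia and macrophage markers was 3822 to 4583 CPM (a gene's share of its library's counts, scaled with TMM factors) in mono-culture and 4828 to 6114 CPM in tri-culture, with 3 higher and 1 lower. Of 14 astrocyte markers, 10 were higher and 1 lower in tri-culture (summed level 762 to 999.5 against 1293 to 1496 CPM), and AQP4 and ALDH1L1 were at 0 in mono-culture. Of 10 dendritic cell markers, 4 were higher (68.3 to 88.9 against 317 to 443 CPM). Mesenchymal markers stood at 16.6 to 36.4 CPM in mono-culture and 21.4 to 376 CPM in tri-culture (2 higher and 0 lower of 5 tested). Neuronal ones stood at 25.3 to 47.8 and 31.0 to 57.2 CPM (4 higher and 1 lower of 6 tested). Neural progenitor ones summed to 1044 to 1369 and 815 to 1002 CPM, although 4 of 6 tested were higher and 2 lower. Among neuronal and progenitor markers, SNAP25, STMN2, DCX, GAP43, SLC17A6, GAD1, SOX2, HES5 and SOX1 were at 0 in mono-culture. The part of these in the results on the respiratory chain was not tested. In bulk RNA, fewer cells of a type and less RNA per cell cannot be told apart.

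Of the 104 genes, 93 had enough counts to be tested in edgeR together with all other genes, 16249 in total: all 13 mitochondrial genes and 80 of the 91 nuclear genes. At an adjusted p under 0.05, 8 were lower in tri-culture and 0 higher. By the same rule 13% of all tested genes were lower and 13.9% higher, so the count of lower genes alone did not set the chain apart. The 8 were the mitochondrial MT-ND5, MT-ND6, MT-CYB and MT-ATP8 and the nuclear NDUFS1, CYC1, COX7A2 and ATP5PO. Before adjustment, 21 genes (12 nuclear, 9 mitochondrial) had p under 0.05 in edgeR, and 0 of these were higher. By the same cut 5982 of all 16249 tested genes had p under 0.05, a larger share, and 3082 of those were higher. DESeq2 called 15 lower and 0 higher, where it called 14.5% of all tested genes lower and 15.3% higher. The fitted log2 fold change (tri-culture minus mono-culture) was below 0 for 72 of 80 nuclear and 12 of 13 mitochondrial genes, against 7786 of 16249 genes in all. Its median was -0.21 for the nuclear genes, -0.44 for the mitochondrial genes and 0.02 for all genes. With library size as the only scaling these medians became -0.12, -0.34 and 0.12.

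The batch numbers pair the libraries. When the fit held the batch as a term (the batch block), 22 of the 93 genes were lower and 0 higher, where 14.5% of all tested genes were lower and 14.6% higher. These were 15 nuclear and 7 mitochondrial genes. All 8 genes above remained, and the block added MT-ND2, MT-ND3, MT-ATP6, NDUFS3, NDUFS6, UQCRC1, UQCRFS1, COX5A, COX6A1, COX6B1, COX7B, COX8A, ATP5MK and CYCS.

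The mitochondrial genes were the more abundant. Their summed counts were 7.48 ± 1.52 times those of the 91 nuclear genes in mono-culture and 7.38 ± 1.25 times in tri-culture (SD, n = 4 each). With each count divided by length, using the exon length for the mitochondrial genes and the median coding transcript for the nuclear ones, the ratio was 6.54 ± 1.17 and 6.15 ± 0.973. The authors' deposited signal, which is also per length, put it at 25.1 ± 4.39 and 24.1 ± 4.15. The lengths that this signal implies were scaled on the mitochondrial genes. For the 82 nuclear genes where they could be read, they were a median of 3.99 times the coding transcript (0.632 to 25.0 times). A longer length gives a lower signal. The group means hide opposite moves within batches: the signal ratio went from 23.9 to 20.8 and from 31.6 to 20.2 in batches 1 and 2, and from 21.9 to 26.8 and from 23.2 to 28.4 in batches 3 and 4, a contrast that was not tested. MT-CO1, the catalytic subunit of complex IV, had the highest signal, 23756 ± 7709 in mono-culture and 28074 ± 2287 in tri-culture. MT-ND1 had the lowest of the 13, 7324 ± 2082 and 5307 ± 221. The most abundant nuclear gene by either length was ATP5F1B, the catalytic beta subunit of ATP synthase, with a signal of 1085 ± 78.1 and 920.4 ± 209. The 13 mitochondrial genes took 4.86, 6.89, 4.14 and 4.45% of all counts in mono-culture libraries 1 to 4 and 4.44, 4.53, 4.52 and 4.32% in tri-culture libraries 1 to 4. Mono-culture library 2 stood above the other 7 in this share. Without it the difference between the group means shrank from -0.63 to -0.03 percentage points, and the median log2 fold change of the mitochondrial genes from -0.44 to -0.30.

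Among the 7 complex I subunits that the mitochondrial chromosome encodes, all of them parts of the membrane arm, MT-ND5 and MT-ND6 were lower in tri-culture. MT-ND5 stood at 6760.4, 8375, 5915 and 6067 CPM in mono-culture libraries 1 to 4 and at 4198, 3828, 4806 and 4539 CPM in tri-culture libraries 1 to 4. The groups did not overlap, and the difference passed the test (edgeR log2 fold change -0.64 ± 0.17 SE, adjusted p = 0.0117) with any single library left out. MT-ND6, the only 1 of the 13 encoded on the opposite strand, measured 3062, 4090.5, 2013 and 2142 CPM in mono-culture and 1677, 1477, 1789 and 1669 CPM in tri-culture (edgeR log2 fold change -0.77 ± 0.21 SE, adjusted p = 0.0153). All tri-culture libraries lay below all mono-culture libraries, but the fall was larger in batches 1 and 2 (log2 fold change -1.19) than in batches 3 and 4 (-0.26), a contrast that was not tested. Whether reads were counted by strand is not given in the sources used here, so reads from MT-ND6 and from the transcript that runs across it on the other strand cannot be told apart. The other 5 had log2 fold changes from -0.48 to -0.33 that did not pass: MT-ND1 -0.48 ± 0.18, MT-ND2 -0.44 ± 0.16, MT-ND3 -0.43 ± 0.19, MT-ND4 -0.37 ± 0.21 and MT-ND4L -0.33 ± 0.14. With the batch block, MT-ND2 (edgeR log2 fold change -0.42 ± 0.14 SE, adjusted p = 0.0391) and MT-ND3 (edgeR log2 fold change -0.44 ± 0.12 SE, adjusted p = 0.0157) passed.

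MT-CYB, cytochrome b and the only mitochondrial-encoded subunit of complex III, was 4645, 6687, 3922 and 4326 CPM in mono-culture libraries 1 to 4 and 3361, 3633, 3153 and 2933 CPM in tri-culture libraries 1 to 4 (edgeR log2 fold change -0.58 ± 0.18 SE, adjusted p = 0.0325). Its groups did not overlap. The difference no longer passed without mono-culture library 1 (edgeR adjusted p = 0.0554), mono-culture library 2 (0.0936), tri-culture library 3 (0.0784) or tri-culture library 4 (0.0771), and stood at an adjusted p of 0.00869 with the batch block.

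The 3 mitochondrial-encoded core subunits of complex IV did not pass the test. MT-CO1 measured 10206, 15012, 6943 and 8783 CPM in mono-culture libraries and 12745, 12730.5, 11598 and 10860.5 CPM in tri-culture libraries (edgeR log2 fold change 0.23 ± 0.22 SE, adjusted p = 0.515). It was the only mitochondrial gene with a fitted value above 0, and the 2 groups overlapped. MT-CO2 had a log2 fold change of -0.21 ± 0.24 and MT-CO3 of -0.12 ± 0.20. Without mono-culture library 2 these became 0.05 and 0.08, while in batches 3 and 4 alone they were -0.06 and -0.03.

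MT-ATP8 and MT-ATP6 encode the membrane subunits of ATP synthase on 1 bicistronic RNA, and their reading frames overlap. The gene sequence of MT-ATP8 (GRCh38, chrM:8366-8572, plus strand) is shown because it carried the smallest adjusted p of the mitochondrial genes; the capitals mark the 46 bases that it shares with MT-ATP6.
MT-ATP8: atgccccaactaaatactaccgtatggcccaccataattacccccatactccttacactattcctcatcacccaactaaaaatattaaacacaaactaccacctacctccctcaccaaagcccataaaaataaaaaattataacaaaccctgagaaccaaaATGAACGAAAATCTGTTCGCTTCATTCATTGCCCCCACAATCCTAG

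MT-ATP8 stood at 1018, 922, 931 and 1168 CPM in mono-culture libraries 1 to 4 and at 811, 577, 474 and 606 CPM in tri-culture libraries 1 to 4. Every tri-culture library was below every mono-culture library (edgeR log2 fold change -0.71 ± 0.17 SE, adjusted p = 0.00594). It passed with each library left out in turn. MT-ATP6 measured 3665, 5218, 2696 and 2788 CPM in mono-culture and 2568, 2652, 2291 and 2083 CPM in tri-culture. Its groups did not overlap either, but it missed the threshold (edgeR log2 fold change -0.58 ± 0.21 SE, adjusted p = 0.0563) and passed it with the batch block (edgeR log2 fold change -0.54 ± 0.15 SE, adjusted p = 0.0135). The capitalised stretch makes up 22.2% of MT-ATP8 and 6.90% of MT-ATP6, counting for the latter the base shared with MT-CO3, and how reads over it were counted is not given in the sources used here.

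**Figure D1:**
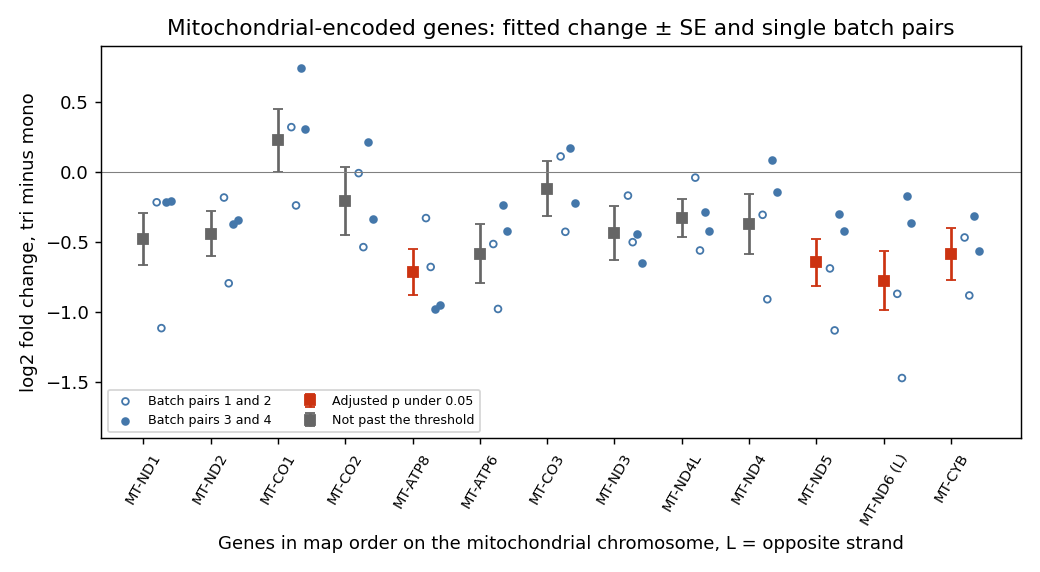
Squares show the edgeR log2 fold change (tri-culture minus mono-culture, vertical axis) with bars of 1 SE for the 13 mitochondrial-encoded genes in map order (horizontal axis), red where the adjusted p was under 0.05. Circles show the 4 single batch pairs, open for batches 1 and 2 and filled for batches 3 and 4. MT-ATP8, MT-ND5, MT-ND6 and MT-CYB are red with all 4 pairs below 0, and MT-CO1 is the only gene whose fitted value lies above 0.

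Within the mitochondrial transcripts the mixture differed between the cultures. As a share of the counts of the 13 genes, which does not depend on library scaling, MT-CO1 made up 19.9, 20.3, 16.8 and 19.3% in mono-culture libraries 1 to 4 and 28.0, 28.2, 27.2 and 27.5% in tri-culture libraries 1 to 4. These shares did not overlap (19.1 ± 1.56 against 27.7 ± 0.437%, SD, n = 4 each). MT-CYB made up 9.03, 9.06, 9.51 and 9.51% against 7.39, 8.04, 7.40 and 7.43%. MT-ATP6 (6.72 ± 0.474 against 5.54 ± 0.267%) and MT-ND6 (5.27 ± 0.579 against 3.85 ± 0.458%) also lay lower in every tri-culture library than in any mono-culture library. Shares of the other 9 genes overlapped between the groups. The share of 1 gene falls when another takes more, so these values are not independent. The ratio of MT-CO1 to MT-CYB counts, picked after its values were seen and therefore not tested, was 2.20, 2.24, 1.77 and 2.03 in mono-culture libraries 1 to 4 and 3.79, 3.50, 3.68 and 3.70 in tri-culture libraries 1 to 4. Without mono-culture library 2, whose ratio was the highest of its group, the groups still did not overlap.

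**Figure D2:**
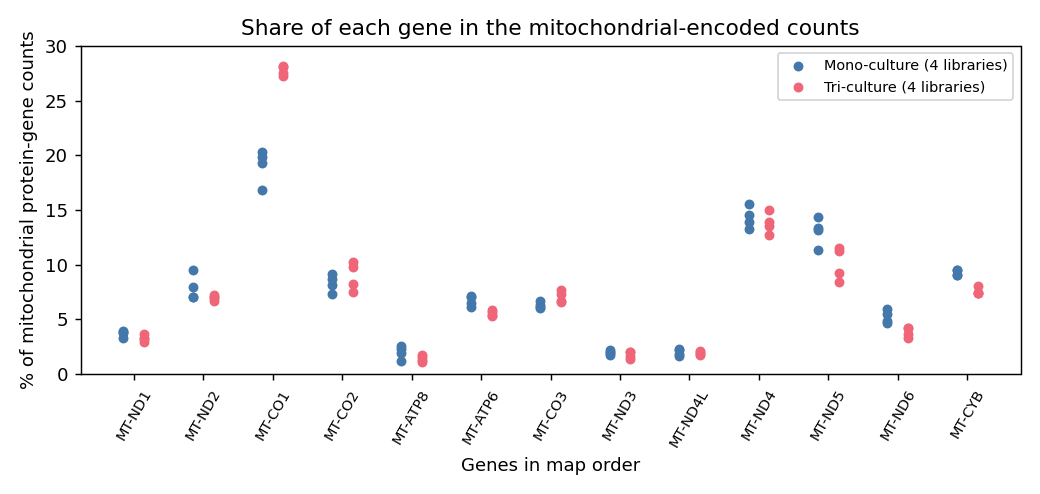
Points give each gene's percentage of the counts of the 13 mitochondrial protein genes (vertical axis) in 4 mono-culture (blue) and 4 tri-culture (red) libraries, with the genes in map order (horizontal axis). MT-CO1 lies at 16.8 to 20.3% in mono-culture and 27.2 to 28.2% in tri-culture, while MT-ATP6, MT-ND6 and MT-CYB lie lower in all tri-culture libraries.

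The nuclear genome carries copies of mitochondrial DNA that can share reads with these genes. On chromosome 1 the copies MTND2P28 (629640 to 630683), MTCO1P12 (631074 to 632616) and MTATP6P1 (633696 to 634376) held counts equal to 20.7 to 23.9%, 2.35 to 3.51% and 9.83 to 14.6% of their parent genes across the 8 libraries. Their log2 fold changes were -0.38, 0.28 and -0.72, next to -0.44, 0.23 and -0.58 for MT-ND2, MT-CO1 and MT-ATP6, and none of the copies passed the test. All 85 named copies with a count summed to 3.19% of the counts of the 13 genes. How the authors' counting treated reads that fit both places is not given in the sources used here.

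Among the nuclear genes, complex IV had the lowest median log2 fold change (-0.33 over 12 tested genes), followed by complex III (-0.26 over 10), complex V (-0.22 over 17), complex I (-0.12 over 36) and complex II (-0.11 over 4); cytochrome c stood at -0.42. All 12 values of complex IV, all 10 of complex III and all 17 of complex V were below 0, against 29 of 36 in complex I and 3 of 4 in complex II. Differences between complexes were not tested. For the mitochondrial subunits the order was another: -0.65 in complex V (2 genes), -0.58 in complex III (1), -0.44 in complex I (7) and -0.12 in complex IV (3). Complex IV thus combined the lowest nuclear median with the mitochondrial median nearest to 0. Groups that did not overlap, with every tri-culture library below every mono-culture library, were found for 13 of the 93 tested genes, 6 nuclear and 7 mitochondrial, while 14.1% of all tested genes did so. The 6 nuclear genes were NDUFB1, NDUFS1, CYC1, COX7A2, ATP5MK and ATP5PO, and the 7 mitochondrial genes were MT-ND1, MT-ND2, MT-ND5, MT-ND6, MT-CYB, MT-ATP6 and MT-ATP8. None of the 93 lay above in every library, where 15.3% of all tested genes did.

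Complex I takes electrons from NADH through the flavin of NDUFV1 and a row of iron-sulfur clusters. NDUFS1, the largest cluster-bearing subunit (chromosome 2, 206114817 to 206159603, minus strand), fell in tri-culture: 187, 158, 189.6 and 189 CPM in mono-culture libraries 1 to 4 against 125, 158, 139.5 and 122 CPM in tri-culture libraries 1 to 4 (edgeR log2 fold change -0.41 ± 0.12 SE, adjusted p = 0.0176). The 2 libraries of batch 2 were almost level. It no longer passed without mono-culture library 4 (edgeR adjusted p = 0.0506) or tri-culture library 4 (0.0504). With the batch block, NDUFS3, a core subunit of the arm that reaches into the matrix, went from 48.8 ± 4.97 to 37.5 ± 8.31 CPM (edgeR log2 fold change -0.40 ± 0.13 SE, adjusted p = 0.0312) and NDUFS6, an accessory subunit at the NADH end, from 40.2 ± 6.58 to 29.4 ± 7.59 CPM (edgeR log2 fold change -0.47 ± 0.13 SE, adjusted p = 0.0142). NDUFV1 itself did not pass (-0.11 ± 0.11 on the log2 scale). The 3 nuclear subunits with the highest deposited signal were NDUFA1, NDUFS5 and NDUFA8, small accessory subunits, at 504 ± 58.5, 251 ± 29.1 and 201 ± 8.26 in mono-culture, and log2 fold changes of -0.32 ± 0.19, -0.00 ± 0.17 and -0.20 ± 0.19, none past the test. Per kilobase of coding transcript the order was another: NDUFS5 stood at 132 CPM, NDUFV1 at 130.2, NDUFA10 at 125, NDUFA1 at 88.9 and NDUFA8 at 53.2 in mono-culture. NDUFA1 shares 44.5% of its exon length with RNF113A on the other strand. The value farthest from 0 belonged to NDUFA13 (0.63 ± 0.38, edgeR adjusted p = 0.265), which had only 0.950 ± 0.354 and 1.47 ± 0.516 CPM and shares 21.0% of its exon length with other genes on its strand.

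Complex II, succinate dehydrogenase, also works in the citric acid cycle, and none of its 4 subunits passed the test. SDHC and SDHD anchor the enzyme in the membrane and stood at 122 ± 2.23 and 116 ± 18.6 CPM, and at 67.5 ± 4.31 and 72.0 ± 13.3 CPM, in the mono-cultures and the tri-cultures (log2 fold changes -0.06 ± 0.12 and 0.09 ± 0.13). SDHB, the iron-sulfur subunit, had a log2 fold change of -0.16 ± 0.17. SDHA, the flavoprotein with the active site, was counted at 11.2 ± 0.157 and 9.51 ± 1.78 CPM (-0.24 ± 0.16). Its named pseudogenes held 449.7% of its own count, so the level of SDHA is uncertain.

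Complex III passes electrons from ubiquinol to cytochrome c. CYC1, cytochrome c1 (chromosome 8, 144095027 to 144097525, plus strand), was 109, 117, 97.6 and 98.1 CPM in mono-culture libraries 1 to 4 and 93.3, 86.2, 73.4 and 60.3 CPM in tri-culture libraries 1 to 4. The highest tri-culture value lay just under the lowest mono-culture values (edgeR log2 fold change -0.43 ± 0.14 SE, adjusted p = 0.0329). It missed the threshold without mono-culture library 1 (edgeR adjusted p = 0.0730), mono-culture library 2 (0.0985), tri-culture library 3 (0.0856) or tri-culture library 4 (0.0791). With the block, UQCRFS1, the Rieske iron-sulfur protein, went from 96.3 ± 9.55 to 75.2 ± 16.0 CPM (edgeR log2 fold change -0.38 ± 0.12 SE, adjusted p = 0.0266), while UQCRC1, a core protein, went from 165 ± 18.6 to 129 ± 19.4 CPM (edgeR log2 fold change -0.36 ± 0.11 SE, adjusted p = 0.0253). UQCRH, the hinge protein at the cytochrome c1 site, had the highest deposited signal of the complex (221 ± 30.5 and 193 ± 64.8) but lay below UQCRB per kilobase of coding transcript (202 against 389 CPM in mono-culture), and did not pass (-0.21 ± 0.20). CYCS, cytochrome c itself, stood at 99.3, 122, 104 and 125 CPM in mono-culture and 92.9, 107, 73.3 and 64.0 CPM in tri-culture. Its groups overlapped, with a log2 fold change of -0.42 ± 0.16 (edgeR adjusted p = 0.0662, and 0.0290 with the block).

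In complex IV, COX7A2, a small membrane subunit (chromosome 6, 75237675 to 75250323, minus strand), had the smallest adjusted p of all 93 genes. It measured 117, 120.3, 114 and 111 CPM in mono-culture libraries 1 to 4, a narrow range, and 82.4, 88.9, 63.5 and 54.2 CPM in tri-culture libraries 1 to 4. The groups were well apart (edgeR log2 fold change -0.68 ± 0.14 SE, adjusted p = 0.00326). It also passed with any library left out, in batches 1 and 2 alone (log2 fold change -0.48, edgeR adjusted p = 0.0337) and in batches 3 and 4 alone (-0.93, 3.72e-05). Its relative COX7A2L, known for joining complexes III and IV into supercomplexes, did not pass (87.9 ± 9.19 and 76.3 ± 20.2 CPM, -0.20 ± 0.17 on the log2 scale). COX5A, COX6A1, COX6B1, COX7B and COX8A were lower with the batch block. COX6B1 faces the intermembrane space and stood at 137, 156, 115 and 119 CPM in mono-culture and 122, 112, 78.9 and 73.2 CPM in tri-culture (edgeR log2 fold change -0.47 ± 0.11 SE, adjusted p = 0.00664). COX7B went from 88.9 ± 9.63 to 66.1 ± 23.0 CPM (edgeR log2 fold change -0.48 ± 0.14 SE, adjusted p = 0.0196). COX8A had the highest deposited signal of the nuclear complex IV genes (409 ± 26.9 and 315 ± 98.1), though per kilobase of coding transcript COX4I1 stood above it (382 against 111 CPM in mono-culture). It went from 56.3 ± 3.91 to 43.0 ± 13.4 CPM (edgeR log2 fold change -0.44 ± 0.15 SE, adjusted p = 0.0487), and 34.5% of its exon length lies in another gene on its strand. The counts of COX6A1 pseudogenes came to 4.52% of those of the gene.

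Several complex IV subunits exist in a common form and a tissue-restricted form, and nearly all counts here fell on the common one. COX4I1 was at 273 ± 56.7 and 230.3 ± 71.2 CPM (-0.25 ± 0.21 on the log2 scale, not past the test), while COX4I2, known as the lung form, had 0 counts in all 8 libraries, which allows up to 3 counts over the 8, or 0.0162 CPM. COX7B2, a testis form, also had 0 counts in all libraries. The muscle forms COX6A2 and COX7A1 had 9 and 7 counts, and 8 and 5 counts, summed over the mono-culture and the tri-culture libraries. The testis forms COX6B2 and COX8C had 4 and 2, and 0 and 1. Of the 3 genes for the c subunit of ATP synthase, which differ only in the part removed on import, ATP5MC3 and ATP5MC2 were the more abundant by either length (signal 164 ± 18.0 and 69.5 ± 6.73 in mono-culture) and ATP5MC1 the least (31.3 ± 2.94), and none passed (-0.28 ± 0.18, -0.25 ± 0.14 and -0.11 ± 0.13 on the log2 scale). These floors and counts cover counting error only.

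NDUFA4L2, the relative of NDUFA4 that is known to be induced in hypoxia, was the exception among the rare forms. It had 16, 17, 58 and 4 counts in mono-culture libraries 1 to 4 and 0, 1, 2 and 3 in tri-culture libraries 1 to 4, or 0.548, 0.944, 1.73 and 0.240 against 0, 0.0408, 0.0907 and 0.156 CPM. The groups did not overlap. It did not pass the filter on low counts, and a fit of all genes with at least 1 count gave a log2 fold change of -3.59 ± 0.73 SE (edgeR adjusted p = 1.45e-05), where 5.73% of all genes were lower and 6.83% higher. NDUFA4 itself did not pass the test (146 ± 13.1 and 131 ± 40.0 CPM, -0.16 ± 0.18 on the log2 scale). Its tri-culture libraries 3 and 4 both lay below libraries 1 and 2, with a mean difference of -0.75 on the log2 scale. The other genes outside the test were NDUFA7, with 31 and 47 counts summed over the groups, COX4I2, COX6A2, COX6B2, COX7A1, COX7B2, COX8C, ATP5MGL (0 and 1 counts) and the readthrough entries NDUFC2-KCTD14 (3 and 0) and ATP5MF-PTCD1 (5 and 8).

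In complex V, ATP5PO, the subunit that ties the catalytic head to the peripheral stalk (chromosome 21, 33903453 to 33915980, minus strand), measured 22.1, 25.4, 22.6 and 25.6 CPM in mono-culture libraries 1 to 4 and 17.5, 21.4, 13.8 and 15.3 CPM in tri-culture libraries 1 to 4 (edgeR log2 fold change -0.49 ± 0.15 SE, adjusted p = 0.0264). The groups did not overlap. Leaving out mono-culture library 2 (edgeR adjusted p = 0.0686), mono-culture library 4 (0.0748), tri-culture library 3 (0.0860) or tri-culture library 4 (0.0657) ended this call. ATP5MK, a small subunit associated with dimers of the enzyme, went from 56.7 ± 3.68 to 43.9 ± 9.18 CPM and was lower with the block (edgeR log2 fold change -0.39 ± 0.12 SE, adjusted p = 0.0260). The catalytic core did not pass: ATP5F1A -0.25 ± 0.15, ATP5F1B -0.25 ± 0.16 and ATP5F1C -0.12 ± 0.17 on the log2 scale. ATP5ME shares 61.6% of its exon length with MYL5 on the other strand and did not pass (-0.45 ± 0.22).

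**Figure D3:**
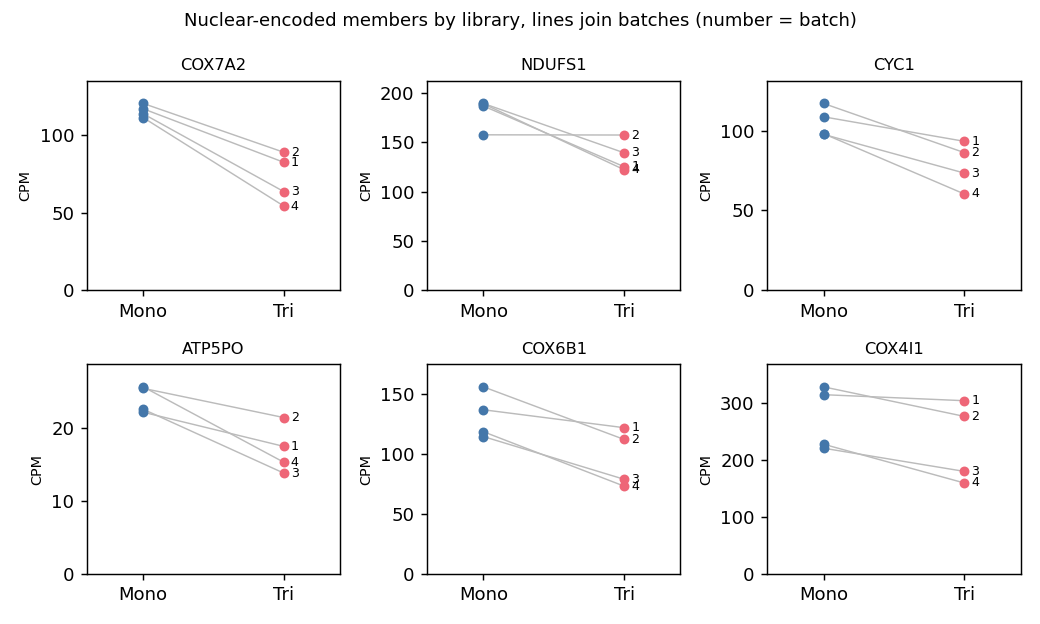
Each panel plots 1 nuclear gene in CPM (vertical axis, from 0) in the 4 mono-culture (blue) and 4 tri-culture (red) libraries, with lines joining libraries of a batch and the batch number at the right. COX7A2, CYC1 and ATP5PO lie lower in every tri-culture library, batch 2 of NDUFS1 is almost level, and in COX6B1 and COX4I1 the tri-culture points of batches 3 and 4 lie below those of batches 1 and 2.

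The nuclear genes did not behave alike in the 4 batches. Relative to the mono-culture mean of each gene, the median of the 80 tested nuclear genes (log2 CPM) was 0.04, 0.14, -0.12 and -0.07 in mono-culture libraries 1 to 4 and 0.06, 0.04, -0.47 and -0.61 in tri-culture libraries 1 to 4. Tri-culture libraries 1 and 2 thus lay at the mono-culture level and libraries 3 and 4 well below it. The same median over all tested genes was 0.02 to 0.03 in the 4 tri-culture libraries. For 73 of the 80 genes (91.2%) both libraries 3 and 4 lay below both libraries 1 and 2 in tri-culture, which held for 31.0% of all tested genes. In mono-culture 49 of the 80 (61.2%) showed this order, against 21.2% of all tested genes. The 7 exceptions in tri-culture were NDUFA11, NDUFA13, NDUFS1, NDUFV2, NDUFV3, SDHA and ATP5F1D. Some of these were poorly measured. NDUFA11, NDUFA13 and NDUFV2 had means of only 5.20, 0.950 and 2.05 CPM in mono-culture and 3.84, 1.47 and 1.99 CPM in tri-culture. Named pseudogenes of NDUFV2 held 77.7% of its own count, so its level is uncertain, as is that of SDHA.

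**Figure D4:**
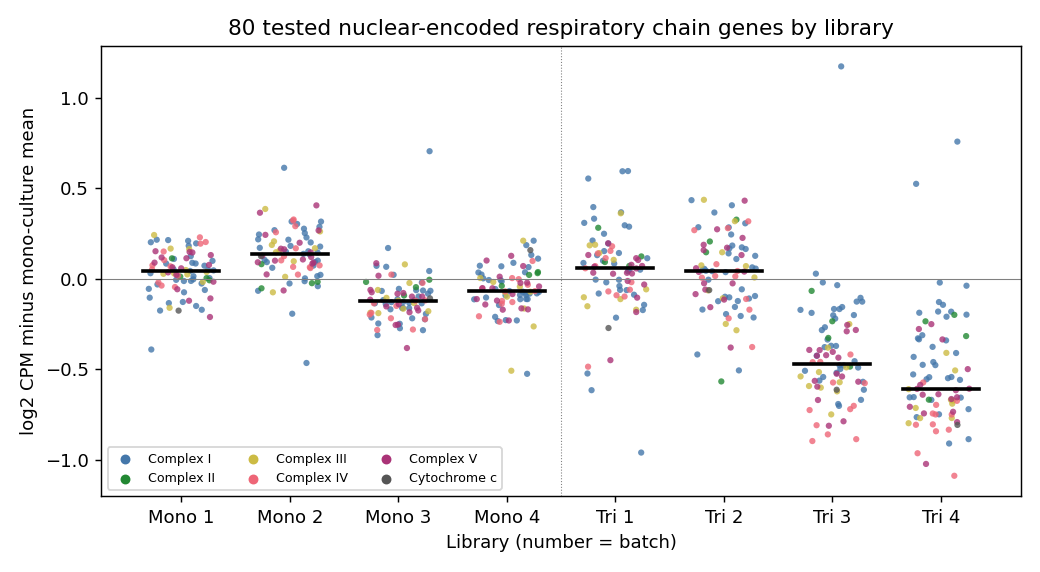
Each point is 1 of the 80 tested nuclear genes, coloured by complex, plotted as its log2 CPM minus its mono-culture mean (vertical axis) in each of the 8 libraries (horizontal axis, number = batch), and the black bars are medians. The bars lie at 0.06 and 0.04 in tri-culture libraries 1 and 2 and at -0.47 and -0.61 in tri-culture libraries 3 and 4.

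Fits on parts of the batches gave correspondingly different counts. With batches 1 and 2 alone, 1 of the 80 nuclear genes was lower (COX7A2) and 0 were higher (9.61% of all tested genes were lower and 9.44% higher), their median log2 fold change was -0.04, and 4 mitochondrial genes (MT-ND5, MT-ND6, MT-CYB and MT-ATP6) were lower. With batches 3 and 4 alone, 54 of the 80 were lower (17.3% of all tested genes were), with a median of -0.45. They comprised 16 of 36 in complex I, 2 of 4 in complex II, 9 of 10 in complex III, all 12 in complex IV, 14 of 17 in complex V, and CYCS. The lowest values were those of COX7A2 (-0.93), COX7B (-0.82), COX8A (-0.81) and ATP5ME (-0.80). In those batches 6 mitochondrial genes were lower (MT-ND2, MT-ND3, MT-ND4L, MT-ND5, MT-CYB and MT-ATP8), and MT-CO1 was higher (log2 fold change 0.52, edgeR adjusted p = 0.0141; 17.8% of all tested genes were higher). In all 12 lists of other mitochondrial genes given further on, the median log2 fold change was also lower in batches 3 and 4 than in batches 1 and 2. It was -0.02 and then -0.39 for protein import, -0.14 and -0.38 for carriers, 0.11 and -0.27 for complex II assembly factors and 0.03 and -0.27 for cristae genes, next to -0.04 and -0.45 for the nuclear chain genes. The smallest step was that of the regulators of mitochondrial biogenesis, from 0.02 to -0.03. The mitochondrial medians of the 2 pairs of batches, -0.52 and -0.32, were closer to each other than the nuclear ones. The difference between the pairs of batches was not tested, and each rests on 2 libraries a group.

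**Figure D5:**
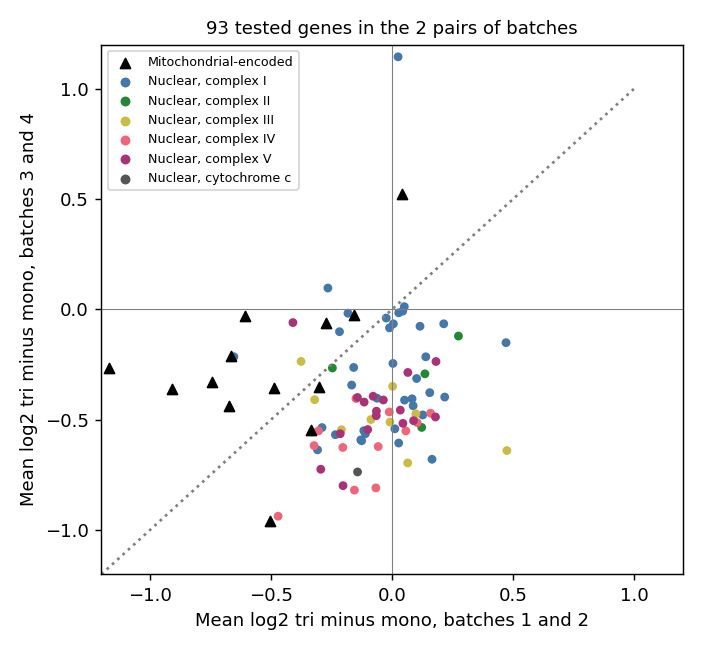
Each of the 93 tested genes is placed by its mean log2 CPM difference (tri-culture minus mono-culture) in batches 1 and 2 (horizontal axis) and in batches 3 and 4 (vertical axis); the dotted line marks equal values, triangles are mitochondrial and circles nuclear genes. The line has 73 of the 80 nuclear genes below it and 3 of the 13 mitochondrial ones.

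Other values moved with this order of the tri-culture libraries. The number of genes with a count was 25108, 27356, 29307 and 30397 in tri-culture libraries 1 to 4, and 26862, 24452, 29794 and 26007 in mono-culture libraries 1 to 4. TMM factors ran from 0.978 and 1.00 to 1.06 and 1.10 in tri-culture. In mono-culture libraries 1 to 4 they were 0.946, 0.936, 1.01 and 0.980, so batches 3 and 4 were the higher there too. Transcript length moved with it as well: the median coding transcript was 714 bases long for the nuclear members and 1857 bases for all tested genes with a length. Other genes with coding transcripts of up to 600 bases, and of 600 to 900 bases, had a median difference of -0.13 and -0.16 between tri-culture libraries 3 and 4 and libraries 1 and 2 (log2), and those over 4000 bases one of 0.10. Members of the same 2 short bands had -0.58 (22 genes) and -0.66 (39 genes). Members of 900 to 1500, 1500 to 2500 and 2500 to 4000 bases had -0.45 (8 genes), -0.33 (9 genes) and -0.30 (2 genes). Other genes of these bands had -0.14, -0.05 and 0.02. Over the 80 members, length and this difference had a Spearman correlation of 0.264. The part of depth of detection, scaling and length in the result was not tested.

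Promoters of the nuclear genes were read from RefSeq (GRCh38.p14, 250 bases before to 50 after the start), since these genes moved together across libraries; 71 of the 91 matched. The 7 short motifs below were looked for on both strands, and the share of all 35116 promoters of this length that hold each is given beside that of the members. Members entered with a single promoter per gene. The 35116 were not limited in that way, nor to protein-coding or tested genes, so the 2 shares come from unlike sets. None of the 7 contains another, though matches may overlap. The ETS family motif CCGGAAG occurred in 28.2% of member promoters and 10.3% of all, the NRF1 motif GCATGCGC in 19.7 and 3.05%, the YY1 motif AAGATGGC in 15.5 and 2.89%, the ERR motif AAGGTCA in 12.7 and 3.92%, the GC box GGGCGG in 59.2 and 45.0%, the CCAAT box in 35.2 and 34.6%, and the E-box CACGTG in 9.86 and 7.26%. ETS factors of the GABP type, NRF1, YY1 and ERR are known regulators of nuclear respiratory genes. A match describes letters and not a bound site. The 250 bases before the start are shown for 5 nuclear genes that were lower with the batch block and hold at least 2 of the ETS, NRF1, YY1 and CCAAT kinds there, so that a reader can see how such motifs are arranged; capitals mark those 4 kinds. The stretches are ATP5MK at chr10:103396476-103396725 (minus strand), COX6A1 at chr12:120437863-120438112 (plus strand), COX6B1 at chr19:35648073-35648322 (plus strand), COX8A at chr11:63974370-63974619 (plus strand) and CYCS at chr7:25125261-25125510 (minus strand).
ATP5MK: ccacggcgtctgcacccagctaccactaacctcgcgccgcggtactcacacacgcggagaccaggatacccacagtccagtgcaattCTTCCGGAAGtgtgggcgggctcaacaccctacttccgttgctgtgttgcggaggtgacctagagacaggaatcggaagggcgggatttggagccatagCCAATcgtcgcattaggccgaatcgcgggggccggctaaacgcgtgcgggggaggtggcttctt
COX6A1: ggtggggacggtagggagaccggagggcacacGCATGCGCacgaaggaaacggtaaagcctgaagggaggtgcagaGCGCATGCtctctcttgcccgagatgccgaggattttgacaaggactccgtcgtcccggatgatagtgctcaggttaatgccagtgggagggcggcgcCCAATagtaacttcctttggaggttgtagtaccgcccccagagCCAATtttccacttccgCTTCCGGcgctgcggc
COX6B1: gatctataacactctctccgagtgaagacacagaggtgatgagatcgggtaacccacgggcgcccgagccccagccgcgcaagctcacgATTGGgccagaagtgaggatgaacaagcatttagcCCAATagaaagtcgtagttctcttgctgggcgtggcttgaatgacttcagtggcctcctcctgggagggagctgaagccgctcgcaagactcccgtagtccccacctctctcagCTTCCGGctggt
COX8A: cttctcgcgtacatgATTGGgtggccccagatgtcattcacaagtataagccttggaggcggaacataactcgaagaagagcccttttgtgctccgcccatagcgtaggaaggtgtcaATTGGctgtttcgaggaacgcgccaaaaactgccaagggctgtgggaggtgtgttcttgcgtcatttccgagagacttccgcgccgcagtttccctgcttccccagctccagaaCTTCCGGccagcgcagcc
CYCS: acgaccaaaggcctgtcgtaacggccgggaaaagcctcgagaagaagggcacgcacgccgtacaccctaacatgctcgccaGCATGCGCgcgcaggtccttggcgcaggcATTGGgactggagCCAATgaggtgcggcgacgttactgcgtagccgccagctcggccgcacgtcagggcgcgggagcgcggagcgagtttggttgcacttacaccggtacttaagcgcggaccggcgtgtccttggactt

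COX6A1 carries 2 NRF1 matches and an ETS match, CYCS an NRF1 match beside 2 CCAAT boxes, and COX6B1 and COX8A an ETS match close to the start with 2 CCAAT boxes farther out. COX7A2, with the smallest adjusted p, held none of the 7 motifs in its 300 bases. The transcripts of the factors themselves did not pass the test: NRF1 (log2 fold change 0.01), GABPA (0.01), YY1 (-0.01) and ESRRA (-0.29).

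In 12 lists of other mitochondrial genes, 149 of 158 genes were tested, of which 8 were higher and 12 lower in tri-culture (5.37 and 8.05%, beside 13.9 and 13% of all tested genes) and 7 and 19 with the batch block (4.70 and 12.8%, beside 14.6 and 14.5%). The lists together thus held a smaller share of called genes than the whole table. Single lists lay on both sides of these shares, with the carriers above them in both directions. Each list holds few genes, and differences between lists were not tested. Of 14 citric acid cycle genes 3 were lower and 0 higher: OGDH, which makes succinyl-CoA, fell from 253 ± 27.6 to 166 ± 12.6 CPM (edgeR log2 fold change -0.60 ± 0.11 SE, adjusted p = 0.00134), as did malate dehydrogenase MDH2 from 123 ± 11.5 to 89.7 ± 9.61 CPM. Of 21 tested genes of protein import, 3 were lower and 0 higher. The matrix chaperone HSPA9 fell from 366 ± 32.6 to 252 ± 21.5 CPM (edgeR log2 fold change -0.54 ± 0.11 SE, adjusted p = 0.00315), TIMM17A fell as well, and TIMM22 passed only without the block. Carriers moved both ways, with 2 lower and 3 higher of 11. The adenine nucleotide translocase SLC25A6 fell from 407 ± 40.6 to 249 ± 48.5 CPM (edgeR log2 fold change -0.71 ± 0.15 SE, adjusted p = 0.00271), as did the outer membrane channel VDAC1 from 253 ± 20.3 to 188 ± 19.7 CPM. The brain creatine kinase CKB rose from 1.89 ± 2.04 to 19.2 ± 5.09 CPM (edgeR log2 fold change 3.46 ± 0.56 SE, adjusted p = 0.000472); AK4, an adenylate kinase, rose as well.

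Assembly factors showed no common direction. Of complex I factors, 2 of 17 were lower and 0 higher: DMAC1 fell from 37.5 ± 5.98 to 23.8 ± 3.36 CPM, and ACAD9 passed only without the block. TTC19 of complex III rose from 31.3 ± 2.41 to 44.7 ± 3.47 CPM (edgeR log2 fold change 0.51 ± 0.11 SE, adjusted p = 0.00346), 1 of 6. In complex IV the copper chaperone COX17 fell from 27.8 ± 3.05 to 19.9 ± 2.88 CPM and COA5 rose, out of 22 tested, and of 5 tested ATP synthase factors ATPAF2 rose, though not with the block. None of 4 complex II factors and none of 12 tested cristae genes passed, while 2 of the latter were lower with the block. Of 13 genes that transcribe and maintain mitochondrial DNA, the polymerase subunit POLG2 rose from 16.5 ± 2.78 to 25.6 ± 5.63 CPM (edgeR log2 fold change 0.63 ± 0.17 SE, adjusted p = 0.0159), while the nuclease MGME1 fell from 53.3 ± 0.911 to 41.6 ± 6.64 CPM. The mitochondrial RNA polymerase POLRMT (0.07) and the packaging factor TFAM (0.06 on the log2 scale) did not pass. Of 15 tested genes of mitochondrial RNA processing and stability, REXO2, an RNA-degrading nuclease, rose from 15.2 ± 1.41 to 20.9 ± 3.63 CPM, and LRPPRC, which stabilises mitochondrial messenger RNAs, did not pass (-0.17). None of the 9 tested regulators of mitochondrial biogenesis passed.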

How the data were processed

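RNA was measured in 8 libraries, 4 per group. The submitters' processing notes name HISAT2 2.1.0, featureCounts 2.12.3 and GRCh38 for the deposited counts, which are whole numbers. Use of strand, the annotation release and the handling of reads with several fits: not given in the sources used here. The other deposited table is named TPM but has column totals from 865863 to 1.13885e+06, so its values were taken as a per-length signal made by the authors whose library scaling is not given. The lengths it implies were scaled on the 13 mitochondrial genes, so for these only the proportion to the GENCODE 29 exon lengths could be checked, and it held. On that scale the lengths lie within 1% of the exon lengths for only 18 of 82 nuclear genes. Levels were therefore also set per median coding transcript.

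Counts of 16249 genes that passed filterByExpr (minimum count 10, minimum total 15) were scaled with TMM factors and tested on the group with edgeR 4.0.16 in R 4.3.3 (quasi-likelihood, robust; Benjamini-Hochberg adjusted p under 0.05; common biological coefficient of variation 0.206). The SE is approximate, taken from the log2 fold change and the square root of F. The same code was tested on simulated data with 50 changed genes per fold. It recovered 0 of 50 at 1.25-fold, 11 at 1.5-fold, 44 at 2-fold and 50 at 4-fold. A gene that did not pass may therefore still differ by a small fold. In the simulation 4 unchanged genes were called. It held a far smaller share of changed genes than the 26.9% called in the data, and no batch differences. The recovery rates in the data may therefore differ from these. For log2 deviations, 0.1 was added to CPM. Coordinates and biotypes come from GENCODE 29, and 42163 genes had a symbol. Floors are 3 counts.

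The labels give the same batch numbers to both groups, which pairs the libraries. Within pairs, deviations from group means correlated at 0.185, 0.126, 0.264 and 0.0796. Batches are called independent in the labels, and p-values measure the spread between them. With 1 library per group, no batch allowed a test of its own. Alternatives were other scaling, no filter, DESeq2 1.42.0, limma 3.58.1 on log2 of the signal plus 0.1 or 1, the batch block, and libraries or pairs of batches left out.

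The members and lists were chosen with earlier results of these data known. Named genes were those called with or without the block, all 13 mitochondrial genes, in each complex the 3 nuclear genes highest in the signal and the one with the largest absolute log2 fold change, the isoform families, and up to 3 called genes per other list. Other genes were named after their values were seen. No set test was run. Some called genes of the other lists are not reported here.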

Additional observations from a re-analysis of the deposited data

Results flagged for a closer look

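In mono-culture, MT-ND1 stood at 1684, 2837, 1615 and 1693 CPM in libraries 1 to 4. Library 2 was set apart from the other 3 by 0.936 of the range of the group, above the critical value of Dixon's test for a group of 4. The same library had the highest share of mitochondrial counts (6.89%). NDUFS1 was lowest in that library, at 158 CPM beside 187, 189.6 and 189 CPM in the others, a gap of 0.919 of the range. These were the only 2 such values in 104 groups of 4 examined, and chance alone gives about 1 in 20 groups.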

How the results depend on the processing

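The count of lower genes depended on the processing more than the direction did. Of 93 tested genes, 8 were lower. The count was 18 with no filter on low counts, 15 with DESeq2, 5 with limma on log2 of the signal plus 0.1 or plus 1, 22 with the batch block, 5 without batches 3 and 4, 60 without batches 1 and 2, and 4 to 16 with single libraries left out (lowest without tri-culture library 4, highest without tri-culture library 1). Nuclear genes accounted for 4 of the 8, and for 10 with no filter, 7 with DESeq2, 15 with the block, 1 without batches 3 and 4, 54 without batches 1 and 2, and 1 to 12 with single libraries left out. Mitochondrial genes accounted for 4, and for 8 with no filter, 8 with DESeq2, 2 with either limma fit and 7 with the block. No gene was higher except 1, MT-CO1, without batches 1 and 2. The whole table moved as well. Of all genes tested in each fit, 13% were lower in the main fit, 5.73% with no filter and 14.5% with DESeq2. The share was 14.5% with the block, 9.61% without batches 3 and 4 and 17.3% without batches 1 and 2. For limma and single libraries left out, no share of all genes is given here, so those counts lack a background. Runs on fewer libraries filtered the genes anew, and the cause of these differences was not tested.

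Of 893 repeats for 47 named genes under 19 alternatives, 770 kept direction and side of the threshold, 76 gained a call, 26 lost one and 21 changed sign, all in genes that were not called. With single libraries left out the log2 fold change ran from -0.36 to 0.051 for MT-CO2, from -0.24 to 0.082 for MT-CO3, from -0.17 to 0.14 for NDUFS5, from -0.14 to 0.010 for SDHC, from -0.27 to 0.048 for COX7C and from -0.25 to 0.026 for ATP5F1C. Without batches 3 and 4 the values were 0.16 for NDUFA8, 0.13 for NDUFS5, 0.11 for SDHB, 0.13 for SDHC, 0.15 for COX7C, 0.096 for NDUFA4, 0.17 for ATP5F1C and 0.050 for ATP5MC1, and without batches 1 and 2 SDHD stood at -0.12. With library size alone NDUFS5 was 0.086 and SDHC 0.026, and with upper quartile factors 0.069 and 0.0098.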
